A study of Capra hircus with 8 samples.

Results

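The 2 control groups of a cirRNA28250 study in goat mammary gland cells, named 3NC and 5NC in the labels, were compared by their mature miRNAs. Members were the 317 features of the deposited table that carry a goat miRNA name and the type mature, out of 5093 features of all kinds, in 4 of the 8 libraries. Of these 317, 301 had at least 1 read in a control library, 170 had a read in each of the 4, and 16 had none. The cells were labelled as mammary gland of the Lanshan dairy goat and were grown in 3D culture. The other 4 libraries came from cells transfected by virus to overexpress cirRNA28250, or to lower it. They entered the filter on low counts, the scaling and the estimate of spread. The series text lists 5NC beside overexpression and 3NC beside knockdown. What the controls received and how they differ from each other are not stated in the labels, nor is whether the 2 libraries of a group are separate cultures. The p-values therefore cover the variation among these libraries alone, and part of it may be technical. Each group held 2 libraries, in which the mature features counted 1048500 and 1407434 reads for 3NC and 2811202 and 1598424 reads for 5NC.

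MicroRNAs are short RNAs cut from both arms of a hairpin precursor and named 5p or 3p after the arm. Usually the guide arm is kept in an Argonaute protein and lowers the output of mRNAs that match its seed, while the passenger arm is mostly degraded. Several miRNAs are known as marks of cell identity: the miR-200 family of epithelia, miR-143 and miR-145 of smooth muscle and fibroblasts, miR-122 of liver, miR-1 and miR-133 of muscle, miR-126 of endothelium. Others are abundant in most cultured cells, such as the let-7 family, a brake on growth and stem cell programmes, and miR-21.

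The first 5NC library stood apart from the other 3 control libraries, and each result below is read with that in view. Whether its RNA is of the labelled origin, species included, was not tested, and this limit holds for each of its values and for the fold changes that use them. Across the 224 mature miRNAs that passed the filter on low counts, the Spearman correlation of normalised levels was 0.91 between the 3NC libraries. The second 5NC library correlated at 0.92 and 0.88 with the 3NC libraries, near the value between the 3NC libraries. The first 5NC library correlated at 0.57 and 0.55 with them and at 0.61 with its own partner. These points are miRNAs of the same 2 libraries and not independent replicates, so no p is given. The median absolute log2 difference, on the log2(CPM + 1) scale, was 0.49 between the 3NC libraries, 0.98 and 1.09 between them and the second 5NC library, and 1.99 between the 5NC libraries. By this measure the second 5NC library lay further from the 3NC libraries than these lay from each other.

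**Figure D1:**
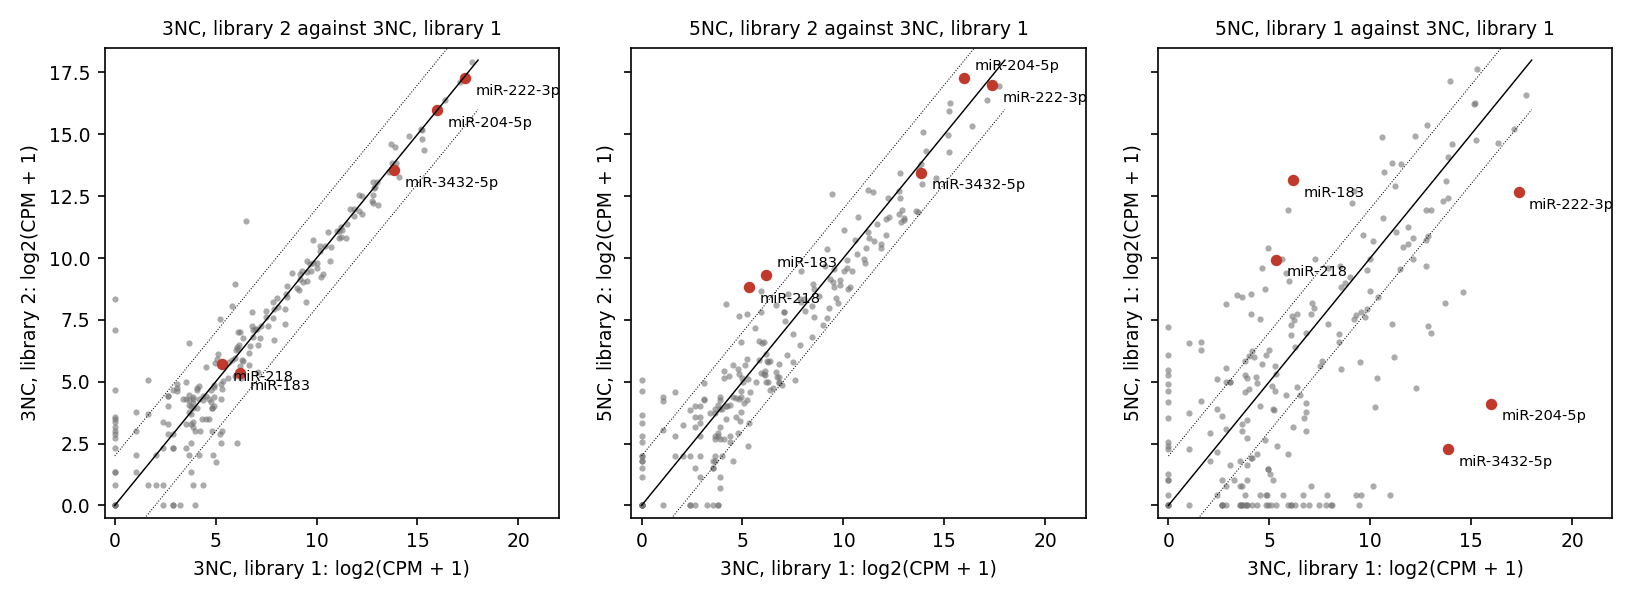
Each point is 1 of the 224 mature miRNAs tested, as log2(CPM + 1) in the first 3NC library (x axis) against the second 3NC, the second 5NC and the first 5NC library (y axes); the solid line marks equal levels and the dotted lines a 4-fold difference. Points hug the line in the left panel (Spearman 0.91) and scatter widely in the right panel (0.57), where miR-204-5p and miR-3432-5p lie at 16.2 and 3.88 CPM; red points are the miRNAs named in the panels.

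The baseline profile was held by few miRNAs. The 10 most abundant took 76.8% and 77.3% of mature reads in 3NC and 78.1% and 79.4% in 5NC, and 15 to 18 miRNAs exceeded 1% in a library. The top 10 of the 3NC libraries shared 9 names, the second 5NC library shared 8 and 7 of them, and the first 5NC library 6 and 5. The names common to all 4 were let-7b-5p, miR-21-5p, miR-423-3p and a feature that miR-92a-3p shares with miR-92b. Without the first 5NC library 7 names were common.

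Let-7b-5p, a let-7 guide arm, was the most abundant mature miRNA of the controls, with 19.5% and 22.3% of mature reads in 3NC and 9.92% and 13.1% in 5NC (mean 16.2% ± 5.70 SD over 4 libraries). Its 3NC libraries lay above both 5NC libraries. MiR-222-3p, which together with miR-221 represses the cell cycle inhibitor CDKN1B, took 15.2% and 14.2% in 3NC, 13.4% in the second 5NC library and 0.658% in the first. MiR-21-5p, abundant in many cultured cells, took 12.7% and 12.9% in 3NC and 3.85% and 8.80% in 5NC. For miR-222-3p the second 5NC library was thus close to 3NC and the first far below, while for miR-21-5p both 5NC libraries were lower.

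MiR-99b-5p, whose gene lies beside let-7e and miR-125a, ran the other way, with 3.64% and 1.92% in 3NC against 20.5% and 8.004% in 5NC. It was the leading miRNA of the first 5NC library. Let-7c-5p, the neighbour of miR-99a, followed the same order, with 1.44% and 1.30% in 3NC and 14.8% and 3.56% in 5NC. MiR-204-5p, known from epithelia of the eye, took 5.83% and 5.76% in 3NC and led the second 5NC library with 16.3%. The first 5NC library held 46 reads of it, or 0.00164% of mature reads.

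The remaining miRNAs among the 15 most abundant were mostly smaller in share. Let-7a-5p took 7.56% and 7.72% in 3NC and 2.58% and 4.29% in 5NC. The feature that miR-92a-3p shares with miR-92b, of the proliferation-linked miR-17/92 group, took 3.43% and 2.57% in 3NC against 7.93% and 6.50% in 5NC. MiR-34a, a target of the tumour suppressor p53, took 2.23% and 2.84% in 3NC, 0.992% in the second 5NC library and 0.0396% in the first. These 3 had no overlap between the groups. MiR-423-3p, miR-23b-3p, miR-125a-5p, miR-99a-5p, miR-328-3p and miR-26a-5p had means of 1.21% to 4.47% over the 4 libraries.

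**Figure D2:**
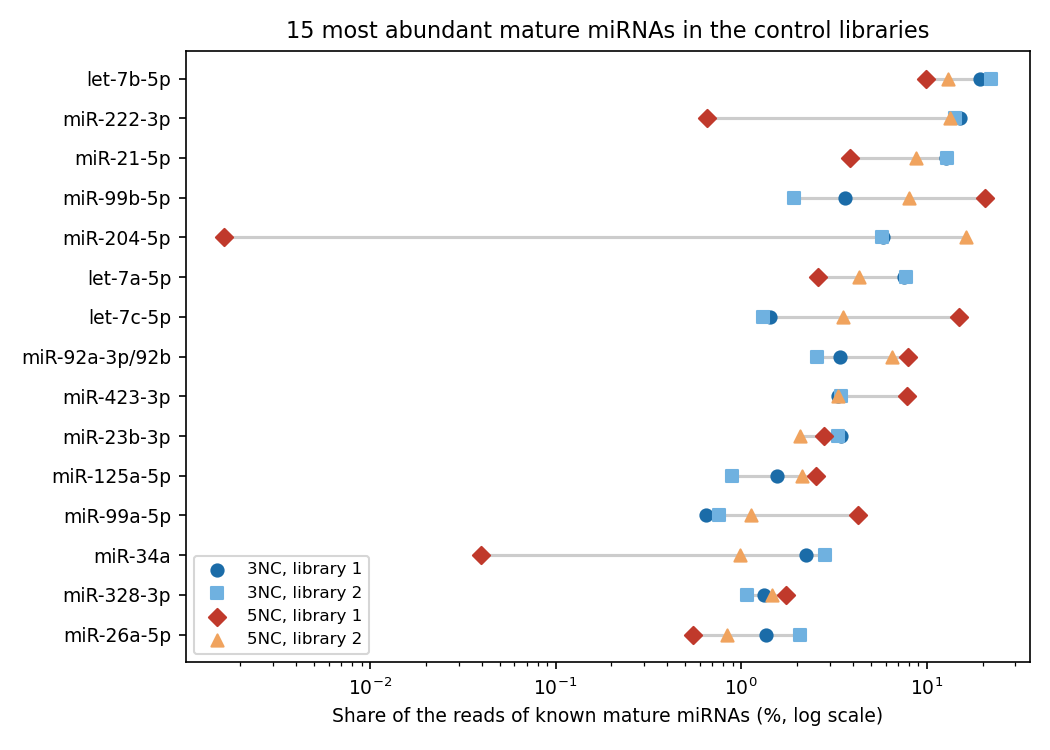
Share of mature miRNA reads (x axis, percent, log scale) of the 15 most abundant mature miRNAs (y axis) in each of the 4 control libraries, 1 marker per library; grey lines span the range. The first 5NC library (red diamonds) lies far left for miR-204-5p (0.00164%), miR-34a (0.0396%) and miR-222-3p (0.658%), and furthest right for miR-99b-5p and let-7c-5p.

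Some abundant miRNAs differed little between all 4 controls. From here on levels are CPM, miRNA reads scaled to a common library size after TMM normalisation (counts per 1000000), a correction for differing library composition. Among the 51 mature miRNAs with a mean of at least 1000 CPM, miR-125b-5p had the smallest range, with 2455 and 2218 CPM in 3NC, against 2115 and 1791 CPM in 5NC. MiR-328-3p came next, with 14609 and 11989 CPM in the 3NC libraries and 17237 and 14293 CPM in the 5NC libraries. MiR-23a, miR-151-5p and miR-23b-3p completed the 5 with the smallest range, which ran from 0.45 to 0.93 on the log2(CPM + 1) scale. MiR-125a-5p shares the miR-125 name and much of its sequence with miR-125b-5p, and reads that match several features may have been split between them, as the counting rule is not given.

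How far each library stood from the rest was counted per miRNA. A library was apart for a miRNA when it lay at least 4-fold above, or at least 4-fold below, each of the other 3 controls, with values under 3 reads set to 3 reads. This held for 4 of 224 mature miRNAs in the first 3NC library (1.79%, against 2.23% of all 358 features tested, predicted miRNAs included). It held for 7 in the second 3NC library (3.12%, against 3.35% of all) and for 6 in the second 5NC library (2.68%, against 3.07%). In the first 5NC library it held for 85 (37.9%, against 40.2% of all), of which 33 were higher and 52 lower. The mature miRNAs were thus no further apart in that library than all features tested.

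**Figure D3:**
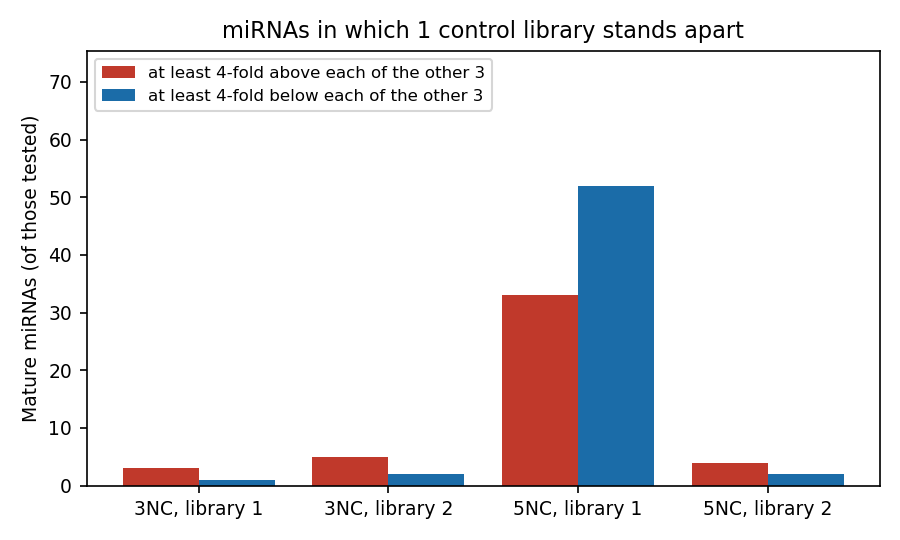
Number of the 224 mature miRNAs tested (y axis) in which 1 control library lies at least 4-fold above (red) or below (blue) each of the other 3 controls, for each library (x axis). The first 5NC library has 33 above and 52 below, the other libraries at most 5 on either side.

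Among the 52 miRNAs that were low in the first 5NC library, several were abundant elsewhere. MiR-204-5p had 64511 and 64161 CPM in 3NC and 158701 CPM in the second 5NC library, against 16.2 CPM in the first, which is 3949-fold below the lowest of the other 3. MiR-3432-5p, a miRNA named in ruminants, had 14715, 11947 and 11207 CPM against 3.88 CPM in the first 5NC library. MiR-16a-5p, of the miR-15 and miR-16 family that restrains cell division, had 4908, 3529 and 3248 CPM against 25.8 CPM. That each of these 3 was lowest in the first 5NC library follows from how they were chosen. For miR-204-5p the second 5NC library lay above both 3NC libraries.

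MiR-197-3p had 2053, 2186 and 1005 CPM and 1 read in the first 5NC library, and miR-155-5p, induced in immune and inflammatory responses, 634, 517 and 566 CPM and again 1 read. MiR-455-3p had 2 reads there against 979 to 1435 CPM in the others. MiR-28-3p, miR-211, miR-3431-5p and miR-191-3p had 0 reads there, with at least 226.9 CPM in each of the other 3 libraries, which puts each at least 214-fold lower against the floor of 3 reads (1.06 CPM).

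Among the 33 miRNAs that were high in the first 5NC library were miR-106b-3p, with 24.3 and 10.3 CPM in 3NC, 19.5 CPM in the second 5NC library and 765 CPM in the first. MiR-140-3p, whose hairpin is known from cartilage, had 11.6, 12.7 and 5.48 CPM against 343 CPM, and miR-130a-3p 9.50, 19.0 and 12.2 CPM against 367 CPM. Let-7d-5p reached 30152 CPM there against 1526 and 2141 CPM in 3NC and 1678 CPM in the second 5NC library. For all 4 miRNAs the second 5NC library lay between or below the 3NC libraries. Its distance from its partner follows from how these miRNAs were chosen.

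The second 5NC library parted from the other 3 in the miR-204 and miR-34 relatives. MiR-211, which shares its seed with miR-204, had 6223 CPM there against 701 and 301 CPM in 3NC and 0 reads in the first 5NC library. MiR-34b-3p and miR-34c-3p, made from a common hairpin cluster, had 450 and 286 CPM there against at most 39.1 CPM in 3NC and 0 reads in the first 5NC library. The passenger arm miR-204-3p had 198 CPM against at most 27.4 CPM elsewhere. MiR-186-5p and miR-340-5p were the 2 on the low side, at 2.44 and 4.26 CPM.

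The second 3NC library stood out in miRNAs of liver and muscle. MiR-122, the main miRNA of liver, had 2925 CPM there, 90.8 CPM in the first 3NC library and 21.2 and 26.2 CPM in 5NC. The muscle miRNAs miR-133b and miR-206 had 324 and 136 CPM there and 0 reads in the first 3NC library. MiR-133a-3p had 60.2 and 489 CPM in 3NC, against 3.18 and 405 CPM in 5NC, and miR-1 35.9 and 187 CPM in the 3NC libraries and 1.06 and 212 CPM in the 5NC libraries. In both groups the second library held more of these 2 muscle miRNAs than the first. Among miRNAs with at least 100 CPM in 1 of the 3NC libraries, miR-532-3p showed the widest lead of the first library, at 137 against 41.1 CPM, followed by miR-30b-5p, miR-211, miR-224-5p and miR-199a-5p.

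The comparison of 3NC with 5NC addresses which miRNAs differ between the controls themselves. No mature miRNA passed the test: 0 of 224 were called by the edgeR quasi-likelihood test at an adjusted p under 0.05, and 0% of all 358 features tested were called. The smallest adjusted p of a mature miRNA was 0.72. At an unadjusted p under 0.05 there were 9 mature miRNAs (4.02%, against 6.15% of all features tested), 1 higher and 8 lower in 3NC. DESeq2 called 3 mature miRNAs, miR-183, miR-182 and miR-218, all lower in 3NC, where it called 1.96% of all features. Without the first 5NC library edgeR called 0 and left 4 with an unadjusted p under 0.05, and DESeq2 called only miR-206. That call rests on the second 3NC library, since the other control libraries kept had 0 reads of miR-206. Without the second 5NC library edgeR called 9 (3.91% of all features were called), 7 higher and 2 lower in 3NC. With 2 libraries on each side an exact permutation test has a smallest two-sided p of 0.333, and none was run.

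By direction 127 of the 224 lay higher in 3NC and 97 lower, with a median log2 fold change of 0.42, the same as over all features tested. This centre moved with the scaling, to 0.22 by DESeq2 size factors, to 0.24 by totals of miRNA reads and to 0 by totals over every named small RNA, each over all features, and in the last case to −0.22 over the 224 mature miRNAs, so single fold changes are relative to it. It also moved with the overexpression and knockdown libraries, which entered the scaling. Over all features it was 0.27 without the second overexpression library or without either knockdown library, and 0.42 without the first overexpression library. With the control libraries only it was 0.26 over all features and 0.12 over the mature miRNAs. The groups did not overlap, with both 3NC libraries higher, for 82 miRNAs (36.6%, against 33.5% of all features tested). They did not overlap, with both 3NC libraries lower, for 41 (18.3%, against 16.2% of all). These shares are near those of all features. The balance depended on the scaling, since totals over every named small RNA, tried after seeing the data, gave 58 higher and 65 lower in 3NC.

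On the lower side in 3NC the miRNAs with the lowest p had higher levels in both 5NC libraries, the first above the second in each. MiR-183, made from 1 cluster with miR-96 and miR-182 that is known from sensory epithelia, had 71.8 and 39.6 CPM in 3NC, against 9141 and 634 CPM in 5NC. Its log2 fold change was −6.45 ± 1.68 SE (n = 2 per group, edgeR adjusted p = 0.72), and every 5NC library was at least 8.84-fold above every 3NC library. Its partner miR-182 had 60.2 and 36.4 CPM in the 3NC libraries and 3906 and 227 CPM in the 5NC libraries (log2 fold change −5.42 ± 1.66). Without the first 5NC library these values were −3.51 and −2.23. With DESeq2 the adjusted p of miR-183 was 0.000947, and 0.43 without the first 5NC library.

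MiR-218, encoded within the SLIT guidance genes, showed the widest gap between the groups. It had 39.1 and 51.4 CPM in 3NC, against 981 and 457 CPM in 5NC (log2 fold change −3.99 ± 1.40, and −3.33 without the first 5NC library). Every 5NC library was at least 8.88-fold above every 3NC library. The DESeq2 adjusted p was 0.00255, and 0.345 without the first 5NC library. That the step between the groups was present in both 5NC libraries follows from the choice of miR-218 by its gap. The DESeq2 call was lost when the first 5NC library was left out.

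MiR-99b-5p had 40304 and 21378 CPM in the 3NC libraries and 203849 and 77903 CPM in the 5NC libraries, a log2 fold change of −2.19 ± 0.87. It was the only one of this group among the 15 most abundant miRNAs. MiR-25-5p, the passenger arm of a miR-17/92 relative, had 29.6 and 15.03 CPM in 3NC, against 1340 and 96.2 CPM in 5NC. MiR-424-5p and miR-15b-5p, which share the seed of miR-16, had 48.6 and 34.8 against 1003 and 143 CPM, and 583 and 576 against 6715 and 1311 CPM. MiR-187 had 1.06 and 3.16 CPM in 3NC, near the floor of 3 reads, and 94.7 and 20.1 CPM in 5NC.

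On the higher side in 3NC the miRNAs with the lowest p were mostly of low level. MiR-122 has been described, and its log2 fold change of 5.99 ± 2.30 (n = 2 per group, edgeR adjusted p = 0.72) rests on the second 3NC library. MiR-143-3p, of smooth muscle and fibroblasts, was the most abundant of them, with 13265 and 25006 CPM in the 3NC libraries and 287 and 3714 CPM in the 5NC libraries (log2 fold change 3.26 ± 1.53, and 2.37 without the first 5NC library). Both 3NC libraries were at least 3.57-fold above both 5NC libraries. MiR-192-5p and miR-194, both known from gut, liver and kidney, had 179 and 232 against 48.4 and 54.2 CPM, and 71.8 and 128 against 8.12 and 31.1 CPM. MiR-192-5p was among the steadier of these, as its libraries were close within each group.

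MiR-148a-3p, a major miRNA of milk, had 113 and 136 CPM in 3NC, against 12.7 and 29.8 CPM in 5NC (log2 fold change 2.55 ± 1.54). MiR-29b-3p, which targets collagen mRNAs, had 112 and 228 against 7.06 and 51.8 CPM. Both had no overlap and lay lower in the first 5NC library than in the second. MiR-708-5p had 13.7 and 16.6 CPM in 3NC and 3 reads and 1 read in 5NC, and miR-184, known from the cornea, had 5.28 and 15.03 CPM against 3 reads and 0 reads. Ranked by the gap between groups among miRNAs with a mean of at least 100 CPM in the higher group, miR-146a, a brake on inflammatory signalling, came first on this side, with 125 and 141 CPM in 3NC, 0 reads in the first 5NC library and 28.6 CPM in the second. The gaps of miR-146a and miR-148a-3p were not seen in their hairpin features, which are given below.

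**Figure D4:**
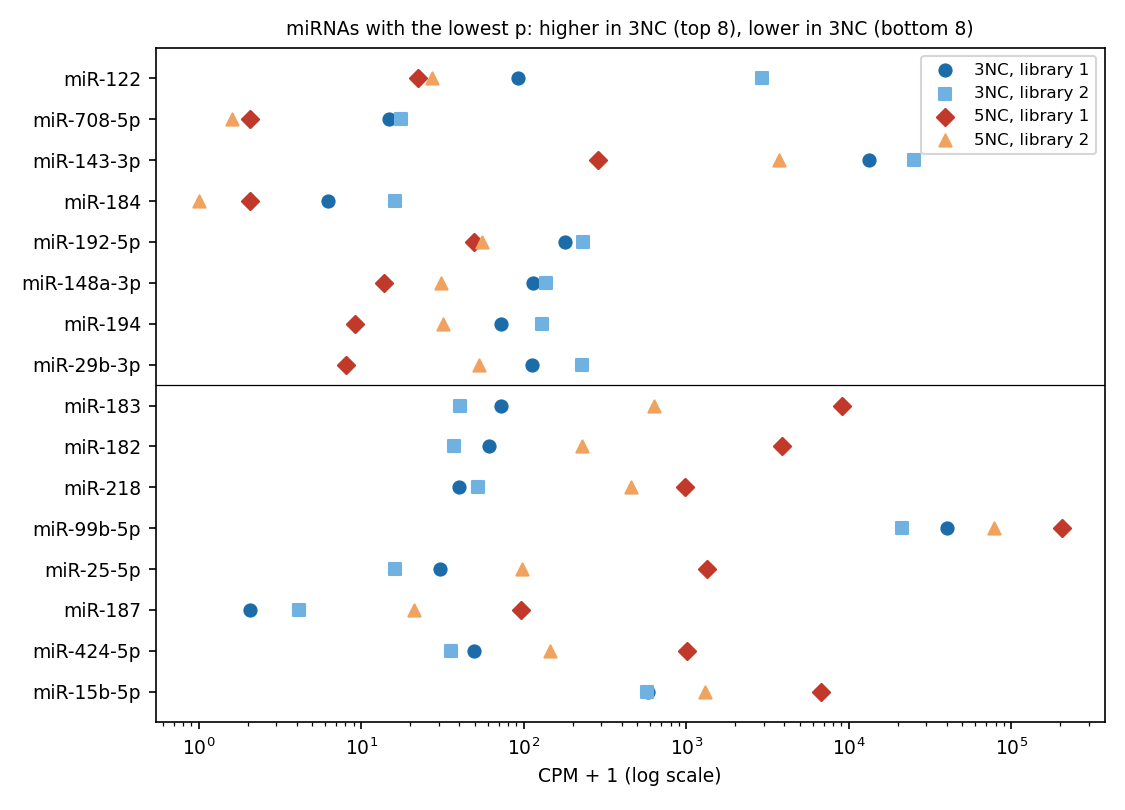
CPM + 1 (x axis, log scale) of the 8 mature miRNAs with the lowest p in each direction (y axis) in the 4 control libraries, 1 marker per library; none passed the edgeR test. Blue markers (3NC) and red or orange markers (5NC) do not overlap in any row, and the first 5NC library (red diamonds) is the highest of all in each of the bottom 8.

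Markers of cell type were read in the same way, and 0 members of any list passed the edgeR test. The labelled tissue is a gland whose secretory cells are epithelial, yet the epithelial miR-200 family was close to 0 in every control. Its 5 members summed to 62.3 and 15.8 CPM in the 3NC libraries and 57.9 and 35.3 CPM in the 5NC libraries, and 3 of them stayed under 10 CPM throughout. MiR-200c was the highest member in all libraries but the second 3NC library, where miR-429 was, with 38.0 and 4.75 CPM in 3NC, against 48.7 and 33.5 CPM in 5NC. The epithelial miRNAs miR-203, miR-205 and miR-375 were not among the features analysed here. Mesenchymal miRNAs had higher sums, with 24086 and 34898 CPM in 3NC, 7720 CPM in the second 5NC library and 464 CPM in the first. In bulk samples fewer cells of a type and less RNA per cell cannot be told apart.

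The other epithelial list, here miR-183, miR-182 and miR-96, had 3 of 3 members lower in 3NC, with a median log2 fold change of −5.42 (−2.23 without the first 5NC library). It summed to 138 and 75.9 CPM in the 3NC libraries and 13093 and 868 CPM in the 5NC libraries. The mesenchymal list had 8 of 8 members higher in 3NC, with a median of 2.01, and 6 higher without overlap, where 33.5% of all features tested were. Its shared entry of miR-199a-3p, miR-199b-3p and miR-199c-3p, abundant in fibroblasts, had 8165 and 8502 CPM in 3NC, against 125 and 3004 CPM in 5NC. MiR-145-5p, from the hairpin cluster of miR-143, had 1195 and 607 CPM in the 3NC libraries and 14.8 and 428 CPM in the 5NC libraries. MiR-199a-5p had 1290 and 656 CPM in 3NC, against 34.6 and 454 CPM in 5NC. Without the first 5NC library 7 of 8 lay higher with a median of 1.07.

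The endothelial, blood, muscle, and liver and neural lists had lower sums than the mesenchymal list in every control. In the first 5NC library the margin was narrow, at 457 CPM for liver and neural miRNAs against 464 CPM. Endothelial miR-126-3p had 588 and 657 CPM in the 3NC libraries and 186 and 191 CPM in the 5NC libraries, and its 2 groups did not overlap. Blood miRNAs summed to 950 and 797 CPM in 3NC, against 414 and 324 CPM in 5NC. Red cell miR-451-5p carried most of that, at 855 and 721 CPM in the 3NC libraries and 193 and 290 CPM in the 5NC libraries, while lymphocyte miR-150 was highest in the first 5NC library (211 CPM, against 24.4 to 81.3 CPM). Muscle miRNAs summed to 96.0 and 1136 CPM in 3NC, against 21.5 and 650 CPM in 5NC, with all 4 members higher in 3NC by sign but a median that turned from 1.70 to −4.07 without the second 3NC library and was 0.88 without the first 5NC library. Liver and neural miRNAs summed to 1031 and 3844 CPM in the 3NC libraries and 457 and 605 CPM in the 5NC libraries, and 5 of 6 lay higher in 3NC. Neural miR-129-5p and miR-9-5p had 740 and 688 against 224 and 452 CPM, and 77.0 and 57.7 against 84.8 and 54.2 CPM. The part of such RNA in the other differences was not tested.

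**Figure D5:**
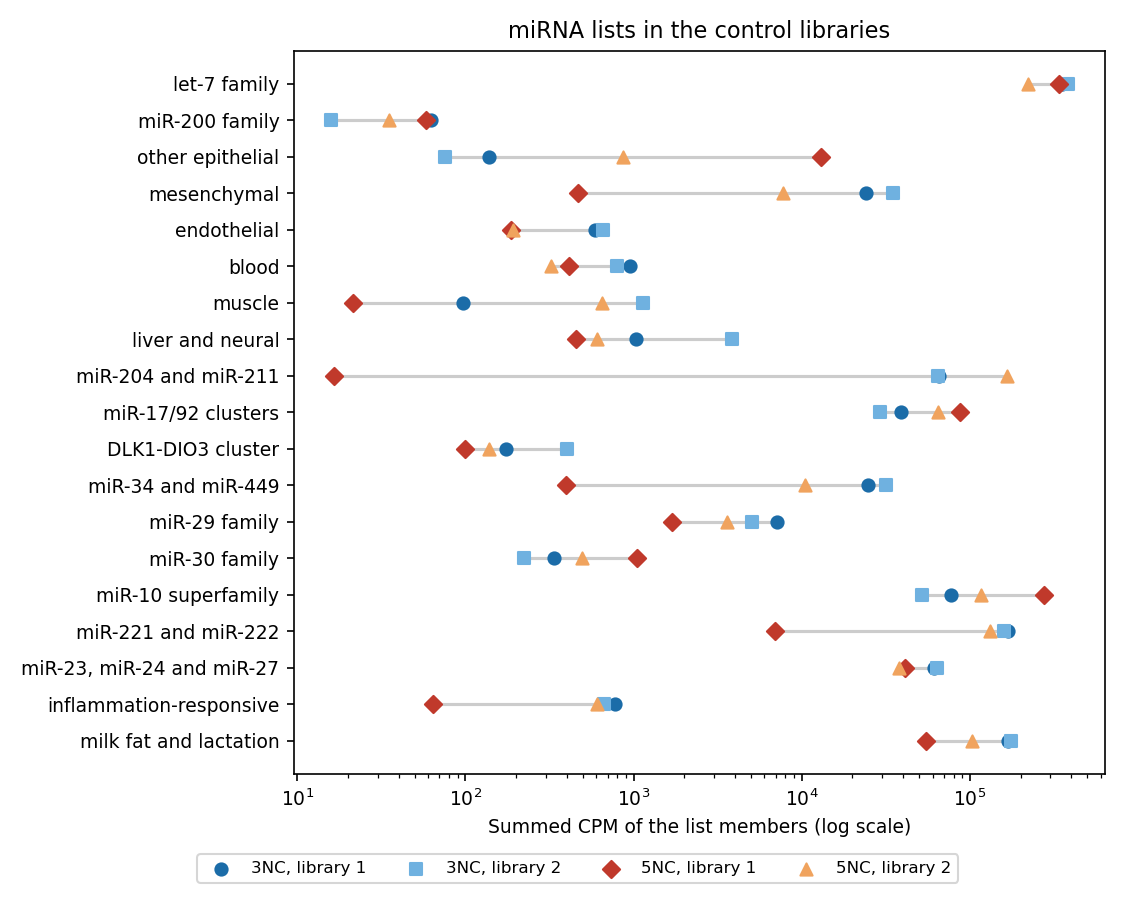
Summed CPM (x axis, log scale) of the members of 19 miRNA lists (y axis) in the 4 control libraries, 1 marker per library; grey lines span the range. The first 5NC library (red diamonds) lies far below the other 3 for miR-204 and miR-211, miR-34 and miR-449, miR-221 and miR-222, and inflammation-responsive miRNAs, and far above them for the other epithelial list.

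Growth-linked groups were split between the controls. The miR-17/92 clusters, known to promote proliferation, had 10 of 11 tested members lower in 3NC, with a median log2 fold change of −1.09 and 5 lower without overlap, where 16.2% of all features tested were. MiR-93-5p and miR-25-3p, made from the same cluster with miR-106b, had 551 and 418 against 4745 and 815 CPM, and 151 and 150.3 against 990 and 378 CPM. Without the first 5NC library the median was −0.75. The miR-34 and miR-449 list, tied to p53 and to ciliated cells, had 2 of 4 tested members on either side, with a median of −0.89 that was −1.62 without the first 5NC library and 6.77 without the second. MiR-34a itself had 24647 and 31663 CPM in 3NC, against 393 and 9653 CPM in 5NC, without overlap, whereas the 3NC levels of miR-34b-3p and miR-34c-3p lay between those of the 5NC libraries.

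The let-7 family had 8 of 15 tested members higher in 3NC, with a median of 0.86, and 12 without overlap, 8 higher and 4 lower, where 33.5% and 16.2% of all features tested were. It was split by member. Let-7b-5p had 215653 and 248354 CPM in 3NC against 98514 and 127148 CPM in 5NC (log2 fold change 1.04 ± 1.04), and let-7i-5p had 12384 and 11431 against 5073 and 3874 CPM. Let-7c-5p had 15897 and 14513 against 147320 and 34645 CPM (−2.58 ± 1.26). Members of this family differ by few bases and the counting rule for shared reads is not given, so their single levels are uncertain. Their sum, 354198 and 382703 CPM in the 3NC libraries and 341081 and 222112 CPM in the 5NC libraries, was higher in both 3NC libraries. As a share of mature reads it did not separate the groups, with 32.0% and 34.4% in 3NC against 34.4% and 22.8% in 5NC.

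The miR-10 superfamily of miR-10, miR-99, miR-100 and miR-125 was split as well, with 5 of 12 tested members higher in 3NC and a median of −0.44 that was −0.05 without the first 5NC library and turned to a positive value with the replicate number as a block. MiR-99a-5p had 7123 and 8506 CPM in 3NC, against 42118 and 10959 CPM in 5NC, and miR-100-5p 7571 and 7451 against 150.1 and 3969 CPM. These 2 have nearly the same mature sequence and moved apart in the first 5NC library. The miR-221 and miR-222 list had 3 of 3 members higher in 3NC, with a median of 1.25 and 0.45 without the first 5NC library. The miR-23, miR-24 and miR-27 list had 6 of 8 tested members higher in 3NC, with a median of 0.75, and its sums of 61183 and 63990 CPM in the 3NC libraries and 41248 and 38003 CPM in the 5NC libraries were close within each group.

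The miR-30 family had 8 of 8 tested members lower in 3NC, with a median of −1.54 and 3 without overlap, where 16.2% of all features tested were. In the absence of the first 5NC library 7 of 8 lay lower, with a median of −0.83. Its levels in the mature features were low, with sums of 335 and 224 CPM in 3NC, against 1049 and 496 CPM in 5NC. MiR-30a-5p made up most of the first 5NC sum, at 679 CPM against 54.9 and 57.7 CPM in 3NC and 99.9 CPM in the second 5NC library. The hairpin feature of miR-30a-5p was far higher, at 4022 and 2676 CPM in 3NC, against 9092 and 9335 CPM in 5NC. In that feature the first 5NC library was not above the second. The miR-29 family had 3 of 4 tested members higher in 3NC (median 1.18, and 0.52 without the first 5NC library), led by miR-29a-3p at 7009 and 4825 CPM in the 3NC libraries and 1687 and 3524 CPM in the 5NC libraries. The DLK1-DIO3 cluster, an imprinted locus, had 9 of 11 tested members higher in 3NC (median 1.22), but 23 of its 32 features stayed under 10 CPM in every control. Its miR-127-3p had 54.9 and 263 CPM in 3NC, against 21.2 and 57.8 CPM in 5NC.

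MiRNAs linked to milk fat and lactation had 8 of 15 tested members higher in 3NC, with a median of 0.95. When the first 5NC library was left out, 12 of 15 lay higher, with a median of 0.27. MiR-21-5p carried most of this list, with 140654 and 143179 CPM in the 3NC libraries and 38249 and 85663 CPM in the 5NC libraries. MiR-26a-5p had 15001 and 23134 against 5494 and 8127 CPM, again without overlap. MiR-103-3p and miR-107-3p, which share a seed and are tied to lipid metabolism, were highest in the first 5NC library, at 186 and 211 CPM against at most 34.1 CPM in the others. The hairpin feature of miR-103-3p was also highest there, at 226 CPM. That of miR-107-3p was highest in the second 3NC library, at 58.5 CPM against 11.3 CPM in the first 5NC library. MiR-16b-5p had 2348 and 1860 CPM in 3NC, against 63.9 and 2113 CPM in 5NC, and miR-181b-5p 1612 and 938 against 3153 and 1156 CPM. The inflammation-responsive list had 2 of 3 tested members higher in 3NC, with a median of 1.02 that was 0.03 without the first 5NC library.

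The miR-200 family had 3 of 5 members higher in 3NC with a median of 0.43, which turned to −0.38 when scaled by totals over every named small RNA. Its median was 3.52 without the first 5NC library, −1.10 without the first 3NC library and −0.50 without the second 5NC library. Against these lists, all 224 mature miRNAs tested had a median of 0.42, with 127 higher. The median of the miR-204 and miR-211 list was −2.52, with 3 of 3 members lower in 3NC and none without overlap, since their 3NC levels lay between the 5NC libraries. Leaving out the second 5NC library gave 11.94, and leaving out the first gave −3.52.

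Both arms of a hairpin come from 1 transcript, so they were compared within libraries. Of 91 hairpins with both arms in the table, 52 had at least 30 reads over both arms in every control. The 5p arm held over 50% of these reads in every control for 34 hairpins and the 3p arm for 14. The major arm changed between controls for the remaining 4, let-7d, miR-140, miR-25 and miR-28. In miR-25 the 5p arm held 16.4% and 9.09% in 3NC and 20.3% in the second 5NC library, but 57.5% in the first. In miR-140 it held 90.7% and 89.7% in 3NC, 85.0% in the second 5NC library and 26.8% in the first. Let-7d did not follow one library, with 47.8% and 60.6% in 3NC and 72.3% and 34.4% in 5NC.

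In the first 5NC library 6 hairpins had 1 arm at least 4-fold below the other 3 controls while the other arm was not below the lowest of them. MiR-28-3p had 250 and 417 reads in 3NC, 537 in the second 5NC library and 0 in the first, where miR-28-5p had 1709 reads. MiR-191-3p had 215, 376 and 539 reads against 0, where miR-191-5p had 87802. MiR-125b-3p and miR-424-3p were also at 0 reads beside 5989 reads of miR-125b-5p and 2839 of miR-424-5p. They had fewer reads in the other controls, 63, 6 and 157 for miR-125b-3p and 13, 25 and 33 for miR-424-3p. MiR-99a-3p and miR-26b-5p completed the set. The other controls held 5, 8 and 18 reads of miR-99a-3p, and 11, 27 and 10 reads of the partner arm miR-26b-3p. The second 3NC library had 1 such hairpin, miR-18a, and the other 2 libraries had 0. Among the 50 hairpins with both arms tested, the arms lay on the same side of the 3NC and 5NC comparison in 30.

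Hairpin features are a separate readout in the same table, although whether a mature read is counted there again is not given. Of the 224 miRNAs, 223 had a hairpin feature of the same name, and 173 of these averaged at least 10 CPM in the controls. Summed over the 4 controls, the hairpin feature held more reads than the mature feature for 88 miRNAs. The 3NC to 5NC difference had the same sign in both features for 152 of 173, with a Spearman correlation of 0.83 across miRNAs of the same libraries. The hairpin feature of miR-204-5p had 22873 and 22489 reads in 3NC, 138879 in the second 5NC library and 21 in the first. That of miR-183 had 47 and 21 reads in 3NC and 16262 and 495 in 5NC, in the order of its mature feature. That of miR-218 had 12 and 11 reads in 3NC and 356 and 67 in 5NC. Not every miRNA that was low in the first 5NC library was low in its hairpin feature there. Those of miR-146a and miR-16b-5p held 276 and 11809 reads there, or 97.5 and 4171 CPM, and neither was the lowest of the 4 controls. Those of miR-155-5p and miR-191-3p held 339 and 60 reads there, or 120 and 21.2 CPM, and were the lowest of the 4 controls. In the other controls they had 582 to 1523 CPM and 391 to 507 CPM. The hairpin feature also held only 4 reads there for miR-3432-5p, 0 for miR-197-3p and 0 for miR-28-3p. For miR-146a the hairpin feature overlapped between the groups, with 123 and 71.98 CPM in 3NC, against 97.5 and 54.8 CPM in 5NC. That of miR-148a-3p overlapped too, with 61.2 and 54.6 CPM in 3NC, against 78.1 and 26.2 CPM in 5NC, as did that of miR-194. Those of miR-122, miR-143-3p, miR-184, miR-192-5p and miR-29b-3p did not overlap and lay higher in 3NC.

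Neighbouring miRNA genes, which can share a transcript, were taken from RefSeq (assembly ARS1.2), where 313 of the 317 features matched a gene name. Genes within 10000 bases of each other formed 29 groups with at least 2 miRNA genes tested. In 13 of them every member lay on 1 side in the first 5NC library relative to the mean of the other 3 controls, where 91 of all 224 lay higher and 133 lower. On the high side these included the cluster of miR-96, miR-182 and miR-183 (median log2 difference 5.17), miR-106b, miR-93 and miR-25 (3.90), and let-7e with miR-99b (2.13). On the low side they included miR-143 with miR-145 (−5.60), miR-34b with miR-34c (−6.76), and miR-221 with miR-222 (−1.99). Neighbours also parted: in the group of miR-15a and miR-16a, miR-16a-5p lay at −7.18 and miR-15a-5p at 1.40, and miR-16b-5p lay at −5.02 beside miR-15b-5p at 3.03. The hairpin feature of miR-16b-5p did not show this parting. It was highest in the first 5NC library, at 4171 CPM against 2741 and 1985 CPM in 3NC and 1624 CPM in the second 5NC library. That of miR-16a-5p was lowest in the first 5NC library, at 182 CPM.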

How the data were processed

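Small RNA libraries were made from 3D cultures of goat mammary gland cells, 8 in all in 4 groups of 2, grouped by their titles. The authors deposited, per the file headers, raw counts and TPM values by feature and library. The counts were used, and the TPM values, which the authors deposited with 0 reads written as 0.001, were not. Aligner, build and counting software: not given in the sources used here. No mature sequences were used here.

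Library totals were 8084584 to 15729279 reads in the controls, of which mature features held 10.8% to 17.9%. Counts of the 317 mature features and of 664 predicted miRNAs were tested together in R 4.3.3 with edgeR 4.0.16 (TMM, filterByExpr with a minimum count of 10, robust quasi-likelihood test on all 8 libraries, 4 residual degrees of freedom). The filter kept 358 features, 224 of them mature. Hairpin features stayed out of the test, because a mature read may be counted there again. Two-sided p-values were adjusted by Benjamini-Hochberg over the 358, and called under 0.05. Approximate SEs are the absolute log2 fold change over the square root of F. The common dispersion was 1.64. Floors of 3 reads (1.06 to 3.17 CPM in the controls) cover counting error only, since the files record no molecular identifiers. DESeq2 1.42.0 was an alternative. No pair of control libraries held identical counts.

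The members and lists were chosen with earlier results of these data known. Named were the 15 most abundant miRNAs, the 8 with the lowest p per direction because none passed, up to 5 per direction by the gap between groups, the 5 largest ratios within a group, the 5 with the smallest range, and up to 5 members per list. Others were named from counts after their values were seen.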

Additional observations from a re-analysis of the deposited data

How the results depend on the processing

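The number of mature miRNAs called was 0 in edgeR under every scaling, filter and feature set tried and with the 4 control libraries only. It was 3 with DESeq2 and 1 with DESeq2 and without the first 5NC library, a setting chosen after seeing the data. Leaving out 1 library at a time gave 0 to 9 calls, the 9 without the second 5NC library. The number with an unadjusted p under 0.05 was 9, against 29 with DESeq2 and 5 with the replicate number as a block, and ranged from 1 to 64 when 1 library was left out (4 without the first 5NC library, 2 and 1 without the first and the second 3NC library, 64 without the second 5NC library). The deviations of the first 3NC and the first 5NC library had a Pearson correlation of −0.02 across miRNAs. This value cannot decide whether the numbers pair the samples, since the first 5NC library stood apart from the other controls. The labels do not say whether they do. The number without overlap and lower in 3NC was 65 with totals of all named small RNAs, a scaling applied to it after seeing the data, against 41. Of 289 recomputed log2 fold changes of the 17 miRNAs named by p or gap, none changed sign and 5 passed the threshold, for miR-183 and miR-182 with DESeq2 or without the second 5NC library and for miR-218 with DESeq2. List medians changed sign in 8 of 323 recomputed values, in 5 lists. Shares of the most abundant miRNAs moved by more than 1 SD in 3 of 90.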
